A study of Homo sapiens with 13 samples.

Results

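The genes described here are 10 connective-tissue and cytoskeletal genes that are widely used as readouts of the transcription factor SRF and of the co-activator YAP: CCN1, CCN2, AMOTL2, SRF, VCL, TPM1, TAGLN, ACTA2, THBS1 and ABLIM3. They were found by gene symbol among 11963 genes with 1 symbol on the arrays, where 21 probe sets carried their names, and each gene was read from its brightest probe set by mean of log2 of signal plus 6 over all arrays. All 10 of the 10 passed the filter on dim genes, which 7731 genes passed in all. RNA came from MCF10A cells, a spontaneously immortalized human mammary epithelial line that grows in medium with epidermal growth factor (EGF) and a serum mixture. Every culture had been deprived of serum for 24 h, and 13 Affymetrix arrays were run, 1 per condition. EGF-stimulated cells were taken at 20, 40, 60, 120, 240 and 480 min, serum-stimulated cells at the same 6 times, and the unstimulated cells at 0 min had received neither. The serum mixture, called serum here, held cholera toxin, insulin, hydrocortisone and heat-inactivated horse serum. One EGF array was 20 min by its title and 40 min by its description, and the title was used.

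CCN1 and CCN2 encode secreted matricellular proteins that bind integrins and proteoglycans, and both are classical immediate early genes of growth factor and serum stimulation. SRF binds DNA at the CArG box and is driven by ERK through ternary complex factors such as ELK1, and by actin dynamics through the myocardin-related factors MRTFA and MRTFB, which leave monomeric actin when filaments form. YAP and its relative TAZ (WWTR1) enter the nucleus on spread, tense cells, are held back by the Hippo kinases LATS1 and LATS2, and act on DNA through TEAD factors. The 2 pathways meet at many genes of the contractile cytoskeleton and of the matrix, and in mammary epithelium they follow adhesion and stiffness.

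The sequences below are shown because 2 of these 10 genes carry repeated copies of a motif of these pathways just before the gene start. RefSeq promoter windows on GRCh38.p14, 250 bases before to 50 after each start, were at hand for 8 of the 10 genes, AMOTL2, SRF, ACTA2 and ABLIM3 having 2 windows each. They were searched on both strands for the TEAD core GGAATG and for the CArG box, whose matches do not overlap it here. The CCN2 window held 3 TEAD cores, and 0.126% of all 34943 windows of 300 bases held that many or more, while 14% held at least 1. The first SRF window held 2 CArG boxes, and 0.0315% of all windows held that many or more, while 1.3% held at least 1. Both of these CArG boxes had only A or T between CC and GG. Stretches 1 base off this form were not counted, such as ccctatatgg and ccttgtttgg in the second ACTA2 window. Single TEAD cores lay in windows of THBS1, VCL, AMOTL2 and ACTA2, so that 5 of the 8 genes held a core and 1 held a CArG box of the form counted. Neither was found in the windows of TPM1 and ABLIM3. The 250 bases before the start are printed 5′ to 3′ on the gene's strand, with the matches in capitals, for CCN2 (chr6:131951373-131951622, minus strand), SRF (chr6:43171019-43171268, plus strand), THBS1 (chr15:39580829-39581078, plus strand) and VCL (chr10:73997866-73998115, plus strand). A match describes these letters only, and binding was not measured.
CCN2: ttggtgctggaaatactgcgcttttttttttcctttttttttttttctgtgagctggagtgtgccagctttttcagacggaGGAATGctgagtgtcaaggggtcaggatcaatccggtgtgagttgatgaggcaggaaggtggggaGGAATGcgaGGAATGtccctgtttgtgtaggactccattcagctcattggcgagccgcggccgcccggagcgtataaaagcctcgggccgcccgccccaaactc
SRF: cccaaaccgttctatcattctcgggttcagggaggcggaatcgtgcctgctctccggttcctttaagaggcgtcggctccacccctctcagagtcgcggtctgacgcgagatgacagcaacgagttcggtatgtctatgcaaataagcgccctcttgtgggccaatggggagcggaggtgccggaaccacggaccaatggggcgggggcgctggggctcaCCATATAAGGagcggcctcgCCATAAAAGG
THBS1: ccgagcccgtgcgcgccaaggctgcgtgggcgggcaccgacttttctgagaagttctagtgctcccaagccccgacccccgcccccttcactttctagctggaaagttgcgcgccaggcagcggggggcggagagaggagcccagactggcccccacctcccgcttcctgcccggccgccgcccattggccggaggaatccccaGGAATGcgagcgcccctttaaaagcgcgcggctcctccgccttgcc
VCL: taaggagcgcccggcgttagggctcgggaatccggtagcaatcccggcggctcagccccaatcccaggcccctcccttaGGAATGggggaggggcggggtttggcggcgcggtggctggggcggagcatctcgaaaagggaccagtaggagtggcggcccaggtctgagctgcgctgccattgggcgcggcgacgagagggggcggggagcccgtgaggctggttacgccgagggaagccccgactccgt

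The values are MAS5 signals, the linear brightness of a probe set after the authors scaled each array to 1 common mean, so levels are compared between arrays and not between genes. The 2% trimmed mean was 150.04 to 150.05 on the 13 arrays, and the median signal 36.2 to 45.9. The serum array of 20 min stood apart, with 33.3% of probe sets under a signal of 20, against 36.7% to 40.0% on the other arrays. No condition had a replicate: the EGF and serum arrays of a time, or the 3 times of a phase, stood in for replicates, so p-values measure only the spread between these arrays, and their number limits every estimate. The 7 basal epithelial markers on the array, KRT5 and KRT14 among them, all passed the filter, with a summed signal of 28586 to 36049 on EGF arrays, 27439 to 36692 on serum arrays and 30869 on the unstimulated array. Of 11 fibroblast and smooth muscle markers 4 passed it: COL1A1 at signals of 22.4 to 77.7, DCN at 139.6 to 405.4, PDGFRB at 7.7 to 33.6 and SMTN at 132 to 361. The smooth muscle genes DES, MYH11 and CNN1 reached at most 28.9, 26.6 and 15.8. The leukocyte and endothelial markers PTPRC, CD3E, PECAM1, CDH5 and VWF were below the filter, and CD14 was above it.

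CCN2 and CCN1 made the fast wave of this group, with the same course under both stimuli for the first hour. CCN2 (probe set 209101_at) was at 321 in unstimulated cells and at 1499, 3190.2, 3269, 2493, 793 and 491.5 over the 6 times of EGF. With serum its signals at the same times were 1500.5, 3072, 3843, 2135, 679.9 and 502. All 12 stimulated arrays stood above the unstimulated array, as for 7.55% of all genes. The peak at 60 min was 10.2-fold over that array with EGF and 12-fold with serum. By 480 min CCN2 was at 1.53-fold with EGF and 1.56-fold with serum, so most of the gain was gone under both. In a bulk measurement, more RNA per cell and more cells carrying the transcript cannot be told apart.

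CCN1, the sister gene of CCN2, shared the rise and parted between the stimuli on the way down. Its probe set 201289_at was at 593 in unstimulated cells and at 1580.3, 2496, 2742, 1493, 1109 and 932 over the 6 times of EGF. With serum the signals were 1568, 2571, 2810.1, 2484, 1542 and 1179.8. The curves touched up to 60 min, where EGF gave 4.62-fold and serum 4.74-fold over the unstimulated array, and at 120 min the signal was 1493 with EGF and 2484 with serum. EGF minus serum was -0.71 on the log2 scale at 120 min, -0.46 at 240 min and -0.31 at 480 min, after differences between -0.09 and -0.03 in the first 3 pairs. For CCN2 the late pairs were 0.25, 0.22 and -0.04, and the difference between the 2 genes was not tested. The second CCN1 probe set, 210764_s_at, ran with the first (r = 0.98 over the 13 arrays) and had EGF minus serum of -1.03 at 120 min.

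Against the unstimulated array, the mean of the EGF and serum arrays of a time was tested in limma with adjustment over all 7731 genes and a threshold of 0.05. At 60 min 2 of the 10 genes were higher past the threshold, CCN2 and CCN1, where 0.0776% of all genes were. CCN1 stood at a log2 difference of 2.18 there (SE 0.23, adjusted p = 0.0219 in limma). The same 2 were called at 40 min, again beside 0.0776% of all genes, and CCN2 alone at 20 min and at 120 min, beside 0.0259% at each. At 240 and 480 min 0 of the 10 were called and 0% of all genes, CCN2 standing at 1.18 (SE 0.18, limma adjusted p = 0.158) and then 0.61 (adjusted p = 0.319). CCN1 was at 1.09 (SE 0.23, adjusted p = 0.248) and then 0.78 (adjusted p = 0.319). At those 2 times 5 and 3 of the 10 had an unadjusted p under 0.05, as had 752 and 910 of all 7731 genes. Limma with trended, robust variances called 3 and 0 of the 10. The CCN1 call at 60 min held in limma without either array of 120 min and was lost without any 1 of the other 10 stimulated arrays, at adjusted p from 0.0539 to 0.123, and without both arrays of 20 min (adjusted p = 0.0541). The CCN1 call at 40 min was lost over the same omissions (adjusted p from 0.0627 to 0.274), and CCN2 at 20 min without either array of 20, 40 or 480 min (adjusted p from 0.0685 to 0.217). CCN2 at 60 min held in all of them. Without the filter on dim genes CCN1 at 40 and 60 min and CCN2 at 20 min were not called by limma (adjusted p of 0.155, 0.0942 and 0.106). With the arrays of a phase pooled, 0 of the 10 were called for early minus unstimulated, beside 0% of all genes, and 0 for late minus unstimulated, beside 0.0129%. In these 2 comparisons 2 and 5 of the 10 had an unadjusted p under 0.05, as had 586 and 903 of all 7731 genes. With time as a factor limma called 2 and 0 of the 10.

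**Figure D1:**
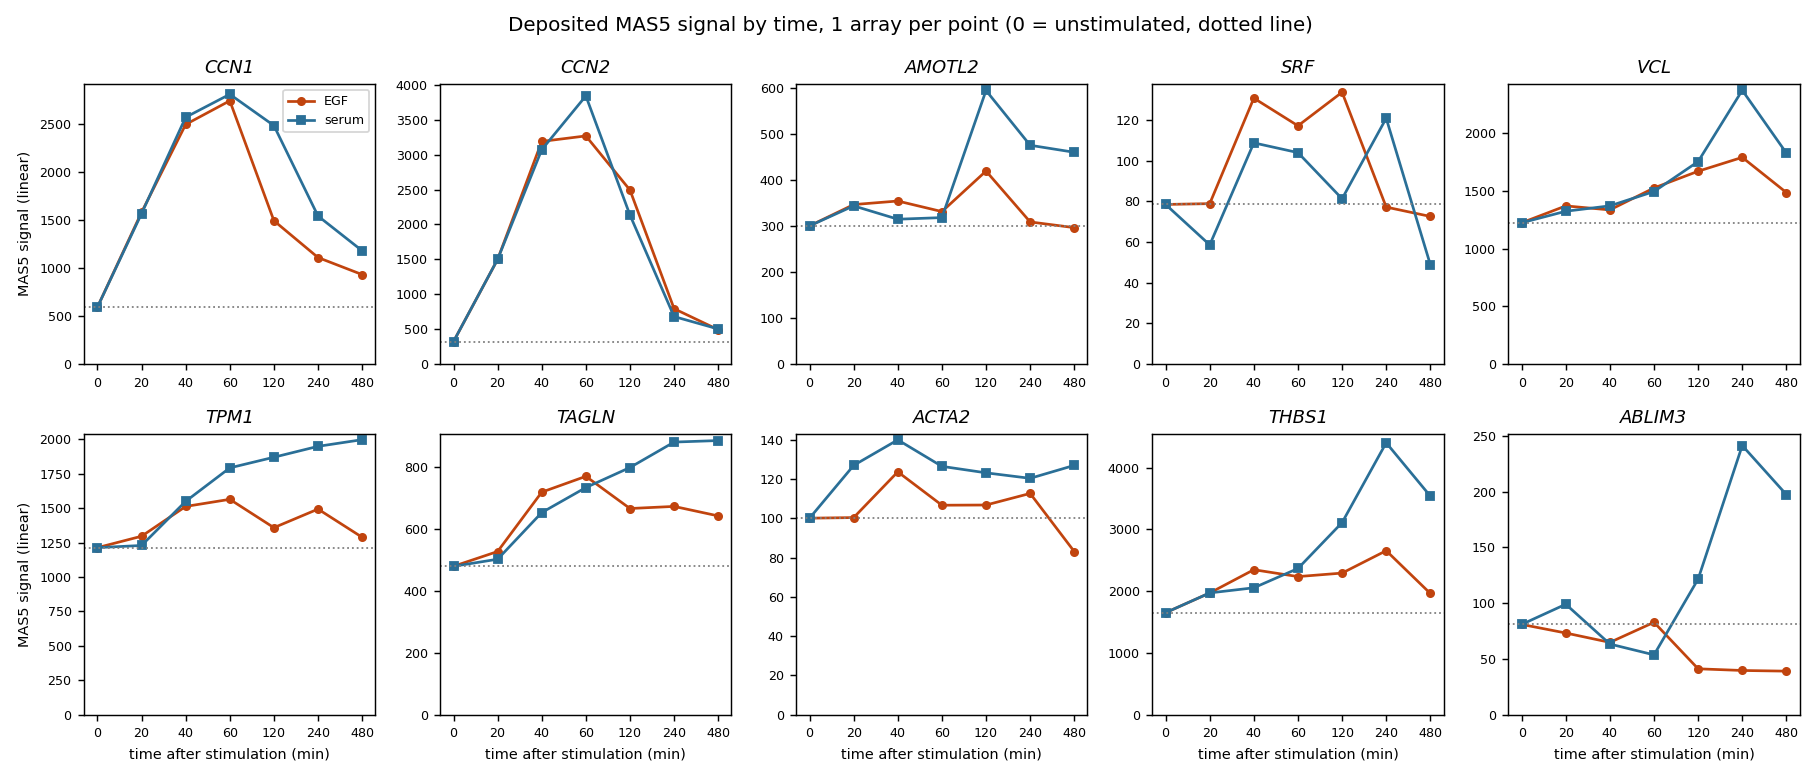
MAS5 signal (linear, vertical axis from 0) of the 10 genes against time after stimulation in min, EGF as circles and serum as squares, 1 array per point, with the unstimulated array at 0 and as a dotted line. CCN1 and CCN2 peak at 60 min under both stimuli, and the serum curves of AMOTL2, TPM1, TAGLN, THBS1 and ABLIM3 lie above the EGF curves at 120, 240 and 480 min.

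AMOTL2 encodes a scaffold of the angiomotin family that binds YAP and holds it at junctions and actin, and is itself a YAP target. Its signal was 300 in unstimulated cells and 346, 354, 331, 419, 309 and 296 over the 6 times of EGF. In serum-stimulated cells it was 343.5, 314.5, 318, 594, 475 and 459.9. The first hour was nearly flat under both, and from 120 min on the 3 serum arrays lay above every other AMOTL2 value. The peak at 120 min was 1.40-fold over the unstimulated array with EGF and 1.98-fold with serum, and the mean of both stood at 0.74 (SE 0.29, limma adjusted p = 0.494).

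SRF, the transcription factor itself and a target of its own protein in many cells, was dim and uneven. The signal of 202401_s_at was 78.5 in unstimulated cells and 78.9, 131, 117, 134, 77.2 and 72.6 over the 6 times of EGF. The serum arrays gave 58.6, 109, 104, 81.3, 121 and 48.9. Both stimuli were above the unstimulated array at 40 and 60 min, and the highest signal came at 120 min with EGF and at 240 min with serum, EGF minus serum being 0.65 at the first of these times and -0.64 at the second. Its largest response, 0.70 at 40 min (SE 0.35, limma adjusted p = 0.767), was within the spread between arrays. The other SRF probe set, 202400_s_at, stayed between 3.4 and 25.3 and was below the filter.

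Among the structural genes, VCL encodes vinculin, which ties actin filaments to focal adhesions and cadherin junctions. Its signal was 1223.5 in unstimulated cells and 1369.7, 1335, 1525, 1670.1, 1790.2 and 1485 over the 6 times of EGF. With serum it was 1323.5, 1370.2, 1494, 1754, 2372 and 1827.5. All 12 stimulated arrays were above the unstimulated array, as for 7.55% of all genes, while all 12 were below it for another 7.55%. Both curves were highest at 240 min, at 1.46-fold with EGF and 1.94-fold with serum. The response at 240 min was 0.67 (SE 0.18, limma adjusted p = 0.341). The other VCL probe set, 200930_s_at, had signals of 0.7 to 33.1, was below the filter and did not run with the one used (r = 0.26).

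TPM1 encodes a tropomyosin that winds along actin filaments, and TAGLN encodes transgelin, an actin-binding protein best known from smooth muscle. TPM1 was at 1213 in unstimulated cells and at 1296, 1512, 1564, 1358, 1493 and 1288 over the 6 times of EGF. With serum TPM1 was at 1228.5, 1549, 1792, 1869, 1948 and 1997. Its EGF curve was highest at 60 min and its serum curve at 480 min, the last time. TAGLN was at 479 in unstimulated cells and at 527, 718, 769, 665.5, 672 and 642 over the 6 times of EGF. With serum TAGLN was at 502, 652, 733, 798, 880 and 885. It took the same shape, highest at 60 min with EGF (1.61-fold) and at 480 min with serum (1.85-fold). Of the other TPM1 probe sets, 210987_x_at ran with the one used (r = 0.95), 206116_s_at less closely (r = 0.62), and 206117_at, which had signals of 1.5 to 44.5, did not (r = -0.19).

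ACTA2 encodes smooth muscle alpha-actin, a marker of myoepithelial cells and myofibroblasts, and was dim here. Its signal was 100.1 in unstimulated cells and 100.4, 124, 107, 107, 113 and 83.1 over the 6 times of EGF. Over the serum times it was 127, 140, 126.5, 123, 120.4 and 127. Serum was above EGF at all 6 times, by 0.12 to 0.62 on the log2 scale, and both peaks came at 40 min, at 1.24-fold with EGF and 1.40-fold with serum. Its second probe set, 215787_at, stayed at or under 11.5 and was below the filter.

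ABLIM3 encodes an actin-binding protein with LIM domains, and it showed the widest gap between the stimuli. Its signal was 80.9 in unstimulated cells and 73.2, 64.8, 82.8, 41.1, 39.6 and 39 over the 6 times of EGF. With serum it was 99, 63.3, 53.6, 122, 241 and 197. The 3 late EGF arrays were close to each other and below all other ABLIM3 values, and the 3 late serum arrays were above all other values. The highest serum signal was 2.98-fold over the unstimulated array, at 240 min, and the highest EGF signal 1.02-fold, at 60 min.

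THBS1 encodes thrombospondin-1, a matrix glycoprotein that binds CD47 and activates latent TGF-beta. Probe set 201109_s_at was at 1652 in unstimulated cells and at 1971.5, 2348.5, 2237, 2294, 2657 and 1964 over the 6 times of EGF. With serum it was at 1972, 2056, 2368, 3112, 4405 and 3541. Every stimulated array was above the unstimulated array, as for 7.55% of all genes. The serum curve parted from the EGF curve at 120 min, reaching 2.67-fold at 240 min where EGF reached 1.61-fold. The response at 240 min was 0.99 (SE 0.27, limma adjusted p = 0.346).

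The 5 THBS1 probe sets differed in shape. One, 201108_s_at, followed the brightest (r = 0.99), while 201110_s_at and 201107_s_at did so less (r = 0.74 and 0.72) and 215775_at did not (r = -0.02). The signal of 215775_at was 57.8 in unstimulated cells and 190.5, 249, 140.4, 60.3, 75.9 and 52.2 over the 6 times of EGF. The serum arrays gave 133, 187, 162, 145, 118 and 57.4. This probe set was high at 20 to 60 min and back near its start by 480 min, and in a limma fit over all 11745 probe sets past the filter it fell from the early to the late arrays, with late minus early at -1.05 (SE 0.21, adjusted p = 0.0314). In that fit the brightest probe set had a late minus early of 0.41 (adjusted p = 0.0658), of the opposite sign. Probe set 201107_s_at was also higher in the first hour, with responses of 1.12, 1.47 and 1.44 at 20, 40 and 60 min, none called. Its late minus early was 0.01. Probe set 201110_s_at was lower in EGF than in serum at the late times in the same fit (EGF minus serum -0.98, SE 0.12, limma adjusted p = 0.0318). Its EGF signals ran from 1025 to 1749, and all but that of 240 min lay below the 1702 of unstimulated cells. The rest of the 5 probe sets were lower in EGF at the late times too, at -0.76 to -0.59 in that fit, and were not called. Which transcripts each probe set reads is not given in the sources used here.

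**Figure D2:**
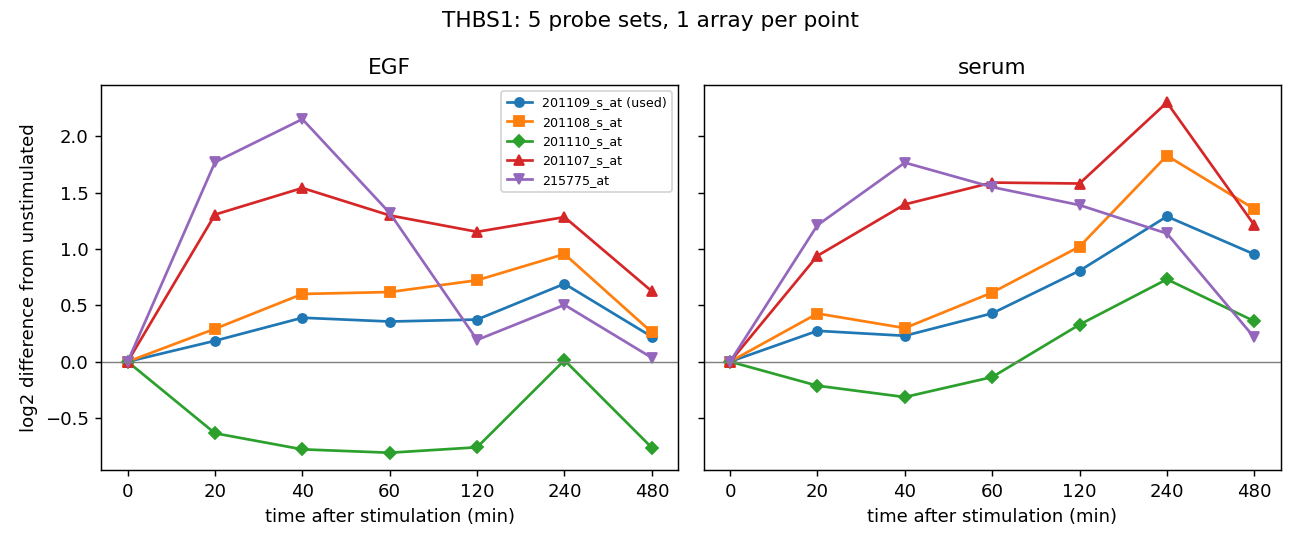
Log2 difference of each array from the unstimulated array for the 5 THBS1 probe sets against time after stimulation in min, EGF on the left and serum on the right, 1 array per point. The probe set 215775_at is highest at 40 min in both panels, and the brightest probe set, 201109_s_at, is highest at 240 min in both.

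Late arrays (120, 240 and 480 min) were next set against early ones (20, 40 and 60 min), where limma called 0 of the 10 genes and 3.47% of all genes (1.68% higher and 1.79% lower). An unadjusted p under 0.05 was held by 5 of the 10 and by 1847 of all 7731 genes. With trended, robust variances limma called 2 of the 10. The values went both ways: THBS1 stood at 0.41 (SE 0.11, adjusted p = 0.0585) and VCL at 0.34 (SE 0.10, adjusted p = 0.0703). Below 0 lay CCN2, with -1.43 (SE 0.46, adjusted p = 0.0972), and CCN1, with -0.69 (SE 0.22, adjusted p = 0.0933). Without the serum array of 120 min CCN1, CCN2 and THBS1 passed, at -0.84 (limma adjusted p = 0.0414), -1.74 (adjusted p = 0.0432) and 0.46 (adjusted p = 0.0399), and without the EGF array of 120 min CCN2 did, at -1.76 (adjusted p = 0.0418). The second CCN1 probe set, in the fit over probe sets, was at -0.97 (SE 0.23, limma adjusted p = 0.047) in place of -0.69.

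Taken within each stimulus, late minus early was positive for 2 of the 10 genes in EGF, as for 53.6% of all genes, and for 6 of the 10 in serum, as for 50.9% of all genes. In EGF, 0 were called by limma and 0.259% of all genes, and with trended, robust variances 0 were called. An unadjusted p under 0.05 was held there by 2 of the 10 and by 1119 of all 7731 genes. The EGF values included ABLIM3 at -0.74 (SE 0.23, adjusted p = 0.205) and CCN1 at -0.91 (SE 0.31, adjusted p = 0.231). In serum 1 of the 10 was higher, ABLIM3 at 1.33 (SE 0.23, limma adjusted p = 0.029), where 0.698% of all genes were higher and 0.634% lower. The next serum values were THBS1 at 0.71 (SE 0.15, adjusted p = 0.0511), AMOTL2 at 0.61 (SE 0.15, adjusted p = 0.0652), VCL at 0.45 (adjusted p = 0.104) and TAGLN at 0.44 (adjusted p = 0.157). The 3 late serum arrays were all above the 3 early serum arrays for 6 of the 10 genes, AMOTL2, VCL, TPM1, TAGLN, THBS1 and ABLIM3, as for 13.5% of all genes. For EGF the like held for 0 of the 10, as for 10.8% of all genes, and the reverse, all late EGF arrays below all early ones, for CCN1 and ABLIM3, as for 9.66%. The ABLIM3 call in serum was lost in limma without the EGF array of 240 min (adjusted p = 0.0501), without the serum array of 40, 60, 240 or 480 min (adjusted p from 0.0713 to 0.109), without both arrays of 20 min (1.53, adjusted p = 0.0535), and without the filter on dim genes (adjusted p = 0.0784).

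**Figure D3:**
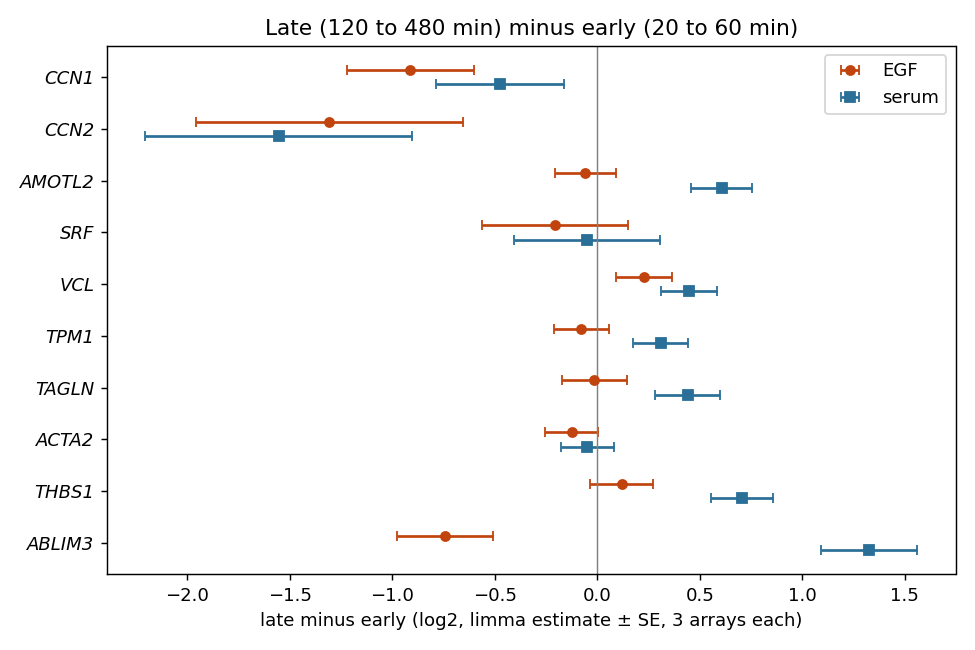
Late minus early (log2, limma estimate with its SE as the bar, 3 arrays in each phase) for the 10 genes, EGF as circles above serum as squares. ABLIM3 lies at -0.74 in EGF and at 1.33 in serum, while CCN1 and CCN2 lie left of 0 in both.

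EGF was compared with serum at matched times, with time as a block. In the early pairs the median of the 10 genes was 0.01, with estimates from -0.24 (ACTA2) to 0.31 (SRF). There limma called 0 of the 10 and 0% of all genes. An unadjusted p under 0.05 was held by 0 of the 10, beside 1115 of all 7731 genes. With trended, robust variances 0 of the 10 were called as well. In the late pairs the median was -0.39, against 0.01 over all genes, and 1 of the 10 was lower in EGF past the threshold, beside 0.504% of all genes (0.75% in either direction). That gene was ABLIM3, with 41.1, 39.6 and 39 in EGF against 122, 241 and 197 in serum, a log2 difference of -2.0 (SE 0.23, limma adjusted p = 0.0219), the 9th lowest of the 7731 genes. AMOTL2 stood at -0.60 (SE 0.10, adjusted p = 0.0532), THBS1 at -0.59 (SE 0.11, adjusted p = 0.0762), CCN1 at -0.49 (SE 0.11, adjusted p = 0.0952) and TPM1 at -0.43 (SE 0.11, adjusted p = 0.112). TAGLN at -0.36, ACTA2 at -0.32 and VCL at -0.19 followed, and CCN2 at 0.15 (adjusted p = 0.49) and SRF at 0.15 (adjusted p = 0.767) were the 2 with EGF higher.

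Counted by sign, EGF was below serum in all 3 late pairs for 8 of the 10 genes, all but CCN2 and SRF, as for 19.8% of all genes. For 6 of them, AMOTL2, TPM1, TAGLN, ACTA2, THBS1 and ABLIM3, the 3 late EGF arrays were all below the 3 late serum arrays, as for 10.8% of all genes. For TPM1 the probe set 210987_x_at shared this and 206116_s_at did not. The late signals of 206116_s_at were 480, 442.5 and 398 in EGF against 469, 468 and 565 in serum. In the early pairs EGF was below serum all 3 times for CCN1, CCN2 and ACTA2, as for 21.2% of all genes. The genes had been chosen with results of these arrays known, so these counts are a description. The ABLIM3 call was lost in limma without either array of 40 min (adjusted p = 0.0671), of 240 min (-1.80, adjusted p = 0.13) or of 480 min (-1.93, adjusted p = 0.118), and without the filter on dim genes (adjusted p = 0.0897). Over all 6 times limma called 0 of the 10 and 0.129% of all genes (0.0129% with EGF higher), and 1 of the 10 was called without a time block. Over these times 4 of the 10 and 1588 of all 7731 genes were at an unadjusted p under 0.05. At an unadjusted p under 0.05 stood 6 of the 10 and 862 of all 7731 genes for the difference between the late and the early gap. This difference was called for 0 of the 10 and for 0.0259% of all genes, and for 3 of the 10 with trended, robust variances. It was -2.07 for ABLIM3 (SE 0.32, limma adjusted p = 0.199), -0.67 for AMOTL2 (SE 0.13, adjusted p = 0.244) and -0.59 for THBS1 (SE 0.15, adjusted p = 0.317), so a late gap wider than the early one was not shown past the threshold. Beside this late gap, the summed fibroblast and smooth muscle markers were 551.5 to 591 in late EGF arrays against 456 to 535 in late serum arrays. The summed basal markers were 28586 to 34979 in late EGF arrays against 35488 to 36692 in late serum arrays, and the summed luminal markers were 5836 to 6233 in late EGF arrays against 6422 to 7049 in late serum arrays. None of the 3 sums overlapped between the late EGF and the late serum arrays. Among all single genes such a gap was met with EGF lower for 10.8% and with EGF higher for 11.7%. A sum of signals is carried by its brightest probe sets. The sum of the further SRF and MRTF targets described below did not overlap either, at 27813 to 32516 against 32911 to 34735. That of the housekeeping genes did, at 20509 to 26398 against 23839 to 25377. Of the 5 luminal markers tested, 0 were called in the late pairs, with a list median of -0.45. An unadjusted p under 0.05 was held by 3 of the 5, beside 1459 of all 7731 genes. The part of these markers in the result was not tested.

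**Figure D4:**
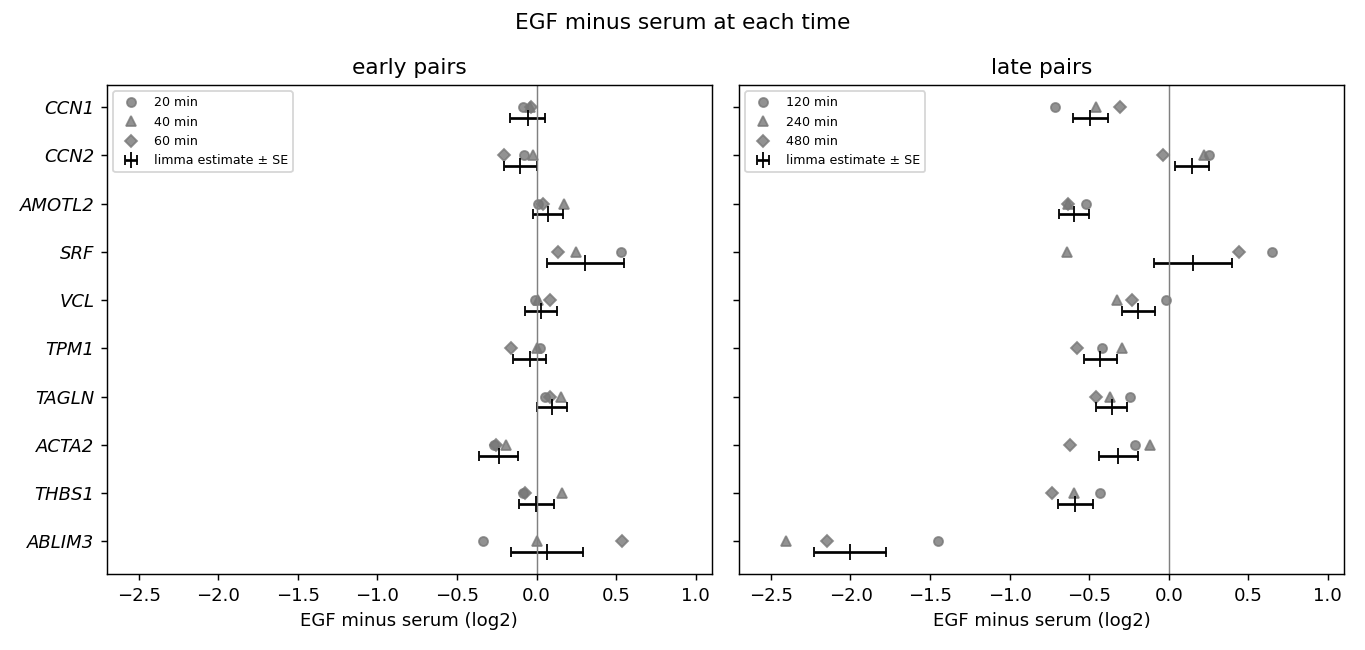
EGF minus serum (log2) for the 10 genes in the early pairs on the left and the late pairs on the right, 1 grey mark per time and the limma estimate with its SE in black. In the late panel 8 of the 10 genes have all 3 marks left of 0, ABLIM3 farthest at -1.45, -2.41 and -2.15.

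Across the 13 arrays the 10 genes fell into unlike courses, as correlations of log2 values describe, with the unstimulated array and the array-wide scaling shared by all points. CCN1 and CCN2 went together (r = 0.92), as did VCL and THBS1 (r = 0.91) and TPM1 and TAGLN (r = 0.90). CCN2 had r = -0.26 to VCL and to ABLIM3, -0.17 to THBS1, 0.08 to AMOTL2, 0.12 to TPM1 and 0.16 to TAGLN. Its r was higher to ACTA2 (0.46) and to SRF (0.57). ABLIM3 was nearest to THBS1 (r = 0.70) and AMOTL2 (r = 0.67). Of all 7731 genes, the 5 most like CCN2 were EGR3 (r = 0.97), JUN (0.93), PTGS2 (0.93), CCN1 (0.92) and ADAM15 (0.91), the first a zinc-finger factor, JUN an AP-1 subunit and PTGS2 an enzyme of prostaglandin synthesis. The 5 most like THBS1 were ANKLE2 (0.92), VCL (0.91), POLR1G (0.90), MIOS (0.90) and PGBD5 (0.89), and these r fell by more than those of CCN2 once the 2 arrays farthest from the median were left out, to between 0.74 and 0.81, against 0.86 to 0.96 for CCN2. The 5 most like SRF, PCBP2, PRSS22, FAH, INHBA and ZDHHC7, had r between 0.80 and 0.83.

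**Figure D5:**
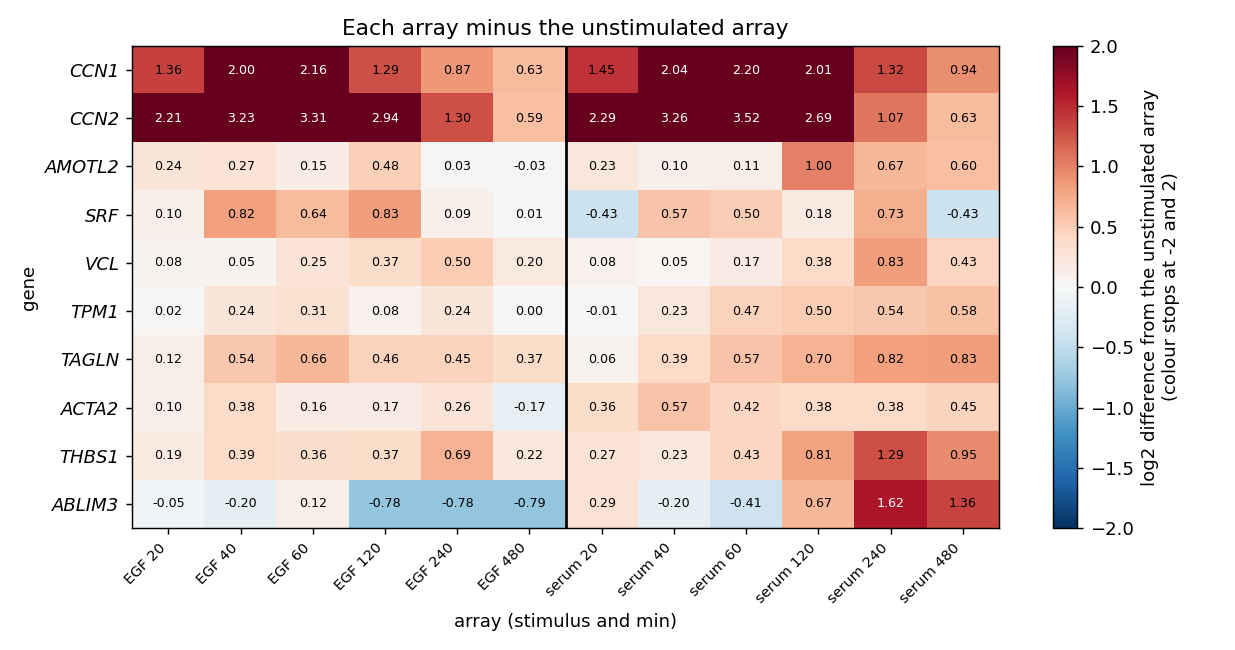
Log2 difference of each stimulated array from the unstimulated array for the 10 genes (rows) over the 6 EGF arrays, left, and the 6 serum arrays, right, in min, with colours stopping at -2 and 2. CCN2 reads 3.31 in the EGF array and 3.52 in the serum array of 60 min, and ABLIM3 reads -0.78, -0.78 and -0.79 in late EGF arrays against 0.67, 1.62 and 1.36 in late serum arrays.

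Other genes of the 2 pathways had smaller values at 60 min than CCN1 and CCN2. Of 32 further SRF and MRTF targets 27 were tested, and 0 were called by limma at any of the 6 response times, 0 to 5 having an unadjusted p under 0.05. Of all 7731 genes 456 to 910 had one at these times. TUFT1 had the highest value, 1.64 at 60 min (SE 0.30, limma adjusted p = 0.171), and FILIP1L was at 1.1 at 40 min (SE 0.32, adjusted p = 0.545). From early to late 2 rose and 0 fell past the threshold: PDLIM5, a LIM protein of actin bundles, at 0.74 (limma adjusted p = 0.00927), and ACTN4, an actin crosslinker, at 0.55 (adjusted p = 0.0254), beside 1.68% of all genes. Both also rose late in serum, PDLIM5 at 1.0 (limma adjusted p = 0.0153) and ACTN4 at 0.92 (adjusted p = 0.0247). In the late pairs ACTN4 was lower in EGF, at -0.64 (SE 0.09, limma adjusted p = 0.0439), as 1 of the 27 against 0 higher, beside 0.504% lower and 0.246% higher of all genes, with a list median of -0.20 against 0.01 over all genes. Leaving out 1 array removed its whole pair here, and that ACTN4 call was lost without any 1 of the 6 pairs (limma adjusted p from 0.0811 to 0.164). From early to late the ACTN4 call was lost without the EGF array of 20, 240 or 480 min or the serum array of 40, 240 or 480 min (limma adjusted p from 0.0503 to 0.0655), and in serum without its array of 20, 40, 240 or 480 min (adjusted p from 0.0592 to 0.0771). PDLIM5 held without each array in turn, except in serum without the serum array of 40 min (adjusted p = 0.0771). As the mean of its probe sets PDLIM5 was at 0.37 (limma adjusted p = 0.233), and at 0.61 in serum (adjusted p = 0.206). Without the filter on dim genes the ACTN4 calls were lost in limma (adjusted p from 0.0665 to 0.157), and so was that of PDLIM5 in serum (adjusted p = 0.0503). The ACTN4 call in the late pairs was lost with an offset of 1 (limma adjusted p = 0.0511) and without a time block (adjusted p = 0.0556). From early to late it was lost with time as a factor (adjusted p = 0.0939). Without both arrays of 20 min ACTN4 was lost from early to late (adjusted p = 0.0714), as were ACTN4 and PDLIM5 in serum (adjusted p of 0.0535 and 0.0665).

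Of 25 further YAP and TEAD targets 19 were tested, and 0 were called by limma at any of the 6 response times, 0 to 3 having an unadjusted p under 0.05. Of all 7731 genes 456 to 910 had one at these times. GADD45A, a stress-induced growth arrest gene, had the highest value, 1.84 at 60 min (SE 0.42, limma adjusted p = 0.29), while ANKRD1, often read beside CCN1 and CCN2, was below the filter with signals of 0.7 to 17.5. From early to late 1 rose, WWC1, a Hippo scaffold also called KIBRA, at 0.35 (limma adjusted p = 0.0313), and 0 fell, beside 1.68% higher and 1.79% lower of all genes. In the late pairs 0 were called and the list median was -0.06. An unadjusted p under 0.05 was held there by 7 of the 19, beside 1459 of all 7731 genes. Of 25 regulators 22 were tested: TEAD4, a DNA-binding partner of YAP, rose from early to late at 0.48 (limma adjusted p = 0.0264) and MRTFB, a co-activator of SRF, fell at -0.32 (adjusted p = 0.0447), 1 of the 22 each way beside the same 1.68% higher and 1.79% lower of all genes. Over all 6 times 1 of the 22 regulators was lower in EGF than in serum, ELK3, a ternary complex factor of SRF, at -0.78 (SE 0.10, limma adjusted p = 0.047), where 0.116% of all genes were lower. The ELK3 call held without either array of 20 min and was lost without either array of 40, 60, 120, 240 or 480 min (limma adjusted p from 0.0714 to 0.162), and as the mean of its probe sets ELK3 was at -0.48 (adjusted p = 0.0865). YAP1 was present at signals of 160 to 261 and WWTR1 at 143 to 250. The WWC1 call was lost without the EGF array of 20, 40, 240 or 480 min or the serum array of 20, 40, 60 or 240 min (limma adjusted p from 0.0573 to 0.0773). That of TEAD4 was lost without the same EGF arrays or the serum array of 20, 40 or 240 min (adjusted p from 0.0555 to 0.0711), and that of MRTFB without any 1 stimulated array but the serum array of 120 min (adjusted p from 0.0502 to 0.0942). Without the filter on dim genes the calls of WWC1, TEAD4, MRTFB and ELK3 were lost in limma (adjusted p from 0.0707 to 0.171). With time as a factor those of WWC1 and MRTFB were lost (limma adjusted p of 0.0736 and 0.0865). Without both arrays of 20 min those of WWC1, TEAD4 and MRTFB were lost (adjusted p from 0.0953 to 0.1). That of ELK3 was also lost with an offset of 1 (adjusted p = 0.0608) and without quantile normalization (adjusted p = 0.0503). Of the other CCN genes on the array, CCN3 passed the filter, with signals of 23.8 to 40.9, and CCN4, CCN5 and CCN6 did not.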

How the data were processed

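The authors measured 13 MCF10A RNA samples on Affymetrix arrays and deposited 1 intensity per probe set and array, a linear MAS5 signal per the submitters' processing notes; the MAS5 version and detection calls were not given in the sources used here. Control probe sets (62 of 22277) and those without exactly 1 symbol in the platform annotation were left out. Signals became log2(signal + 6) and were quantile normalized. The brightest of a gene's probe sets was kept, with a mean at or above the 40th percentile (4.68). Models were fitted with limma 3.58.1 in R 4.3.3 (lmFit, eBayes) on all 7731 genes, with Benjamini and Hochberg adjustment in each comparison and two-sided p-values. Responses had time plus stimulus (5 residual degrees of freedom), phases 5 groups (8), and EGF against serum a time block (5, or 4 by phase). The unstimulated array is shared by all comparisons against it. The procedure was tested on simulated data.

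The 10 genes and all gene lists were chosen with earlier results of these data known. Named were the 10 genes, their other probe sets, from each list up to 4 genes past the threshold or else the 2 largest differences, and the 5 genes most like CCN2, SRF and THBS1 by Pearson r. Genes outside this rule were named after their values were seen: ANKRD1, YAP1, WWTR1, the CCN genes, and the markers KRT5, KRT14, COL1A1, DCN, PDGFRB, SMTN, DES, MYH11, CNN1, PTPRC, CD3E, PECAM1, CDH5, VWF, CDH1 and CD14. Alternatives were offsets of 1 and 24, no quantile normalization, no filter or one at the 60th percentile, averaged probe sets, trended and robust variances, other codings of time and each array left out. For EGF against serum, leaving out 1 array also dropped the other array of its time. Figures were drawn with matplotlib 3.10.9 and tables made with pandas 2.3.3 in Python 3.11.15.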

Additional observations from a re-analysis of the deposited data

Results flagged for a closer look

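ACTA2 was picked out because 1 of its 6 pairs lay far from the others: EGF minus serum was -0.62 at 480 min, while the other 5 pairs were between -0.27 and -0.12. The gap was 0.699 of the whole range, above the critical value of 0.625 for 6 values. This was 1 of 30 sets of 6 values examined over the 10 genes, and chance alone picks out about 1 in 20.

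ABLIM3 was picked out because all 3 late EGF arrays were below the unstimulated array, at -0.78, -0.78 and -0.79, and all 3 late serum arrays above it, at 0.67, 1.62 and 1.36. The mean difference of EGF from serum was -2.0. This opposition of signs was not itself tested, and the difference between the late and the early gap missed the threshold (-2.07, limma adjusted p = 0.199).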

How the results depend on the processing

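Of 150 values of the 10 genes, recomputed 3130 times in all, 2978 kept direction and side of the threshold, 45 lost a call, 46 gained one, 0 calls reversed and 61 uncalled values changed sign. CCN2 at 40, 60 and 120 min was called throughout. Counts of the 10 genes called in limma changed as follows. Across the alternatives the number of all genes called also moved widely, over the ranges given below. A count of the 10 under 1 alternative, here or above, is therefore no result particular to them. An offset of 24 gave 2 at 120 min, 1 for late minus early, 3 for it in serum and 3 for EGF minus serum late. Without quantile normalization late minus early in serum gave 2. Without the filter, where more genes enter the adjustment, the counts were 0 at 20 min, 1 at 40 min, 1 at 60 min, 0 for late minus early in serum and 0 for EGF minus serum late. A filter at the 60th percentile gave 2 at 120 min, 2 for late minus early, 3 for it in serum and 5 for EGF minus serum late. The mean of probe sets gave 2 for EGF minus serum late. Trended, robust variances gave 2 at 20 min, 2 at 120 min, 3 at 240 min, 2 for late minus early, 4 for it in serum, 6 for EGF minus serum late and 3 for the late against the early gap. Time as a factor gave 2 for early minus unstimulated and 2 for late minus early, and no time block 1 for EGF minus serum. Leaving out both arrays of 20 min, chosen after seeing the data, gave 1 at 40 min, 1 at 60 min and 0 for late minus early in serum. Why these counts moved was otherwise not tested. With each array left out in turn they ran from 0 to 1 at 20 min, 1 to 2 at 40 and at 60 min, 0 to 3 for late minus early, 0 to 2 for it in serum and 0 to 1 for EGF minus serum late.

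Over all alternatives the genes called numbered 0 to 5 at 20 min (2 as reported), 1 to 20 at 40 min (6), 1 to 28 at 60 min (6), 1 to 26 at 120 min (2), 0 to 35 at 240 min (0), 0 to 46 at 480 min (0), 0 to 6 for early (0) and 0 to 36 for late minus unstimulated (1), 56 to 657 for late minus early (268), 0 to 69 for it in EGF (20) and 9 to 417 in serum (103), 1 to 426 for EGF minus serum (10), 0 to 178 in its early (0) and 0 to 554 in its late part (58), and 0 to 70 for the difference of gaps (2). SRF, ACTA2 and ABLIM3 were dim, and the offset shrinks their differences: ABLIM3 in EGF minus serum late ran from -2.28 to -1.67.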

Other observations

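Among the marker lists, 1 leukocyte marker, the lipopolysaccharide receptor CD14, fell from early to late in serum, at -1.05 (SE 0.21, limma adjusted p = 0.0405), beside 0.634% of all genes. Over both stimuli CD14 was called lower as well, at -0.79, beside 1.79% of all genes, and in EGF it was at -0.54 and not called. The call over both stimuli was lost without the EGF array of 40, 240 or 480 min or the serum array of 240 min (limma adjusted p from 0.0514 to 0.059). It was also lost without both arrays of 20 min (adjusted p = 0.0714) and without the filter on dim genes (adjusted p = 0.0543). The CD14 call in serum was lost without the EGF array of 20, 40, 60 or 240 min or the serum array of 20, 40, 60, 240 or 480 min (limma adjusted p from 0.0566 to 0.105), without both arrays of 20 min (adjusted p = 0.127) and without the filter on dim genes (adjusted p = 0.101). The adherens junction gene CDH1 stood at -0.74 for EGF minus serum in the late pairs (SE 0.13, limma adjusted p = 0.0687), with signals of 1263 to 2648 over the 13 arrays. SMTN, a smooth muscle marker, stood at 0.66 in the same pairs (SE 0.13, limma adjusted p = 0.0782).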
